A study of Mus musculus with 9 samples.

Results

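MHC class II molecules show peptides from engulfed proteins to helper T cells, and the 8 genes described here encode or control that presentation. They were chosen by name and make up 8 of the 54059 genes in the deposited expression table. H2-Aa and H2-Ab1 encode the chains of the I-A molecule, and H2-Eb1 encodes the beta chain of I-E. Cd74 encodes the invariant chain, H2-DMa, H2-DMb1 and H2-DMb2 the chains of the peptide exchange factor H2-M, and Ciita the transactivator of the family. All 8 were found in the table. Of these, 7 were among the 11450 genes with a mean of at least 1 FPKM (fragments per kilobase of transcript, scaled to the reads of the library) over the 9 libraries, which were the genes tested. H2-DMb2, with a mean of 0.493 FPKM, was not tested.

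As background, class II alpha and beta chains assemble with the invariant chain, which fills the peptide groove and directs the complex to endosomes. Proteases there cut the invariant chain down to a short fragment, and H2-M exchanges that fragment for peptides. Ciita does not bind DNA by itself but joins the factors assembled on class II promoters, and interferon-gamma is the classical inducer of Ciita in macrophages. In the peritoneal cavity, class II is high on small macrophages, dendritic cells and B cells and low on large resident macrophages.

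RNA was sequenced from peritoneal macrophages of C57BL/6 mice, in 3 groups of 3 libraries. Mice, 8 weeks old by their labels, had received 1 ml of starch broth in the peritoneum, and cells were washed out 3 days later and kept if they adhered to the dish, with no sort for a cell type. The wild type group was treated with imiquimod (IMQ, a TLR7 agonist) at 10 µg/ml for 4 h. The M-Shp2-/- group came from mice that carry floxed Shp2 and Lyz2-cre, which deletes it in monocytes, mature macrophages and granulocytes, and also received IMQ for 4 h. The IMQ dose of this group is not stated separately. The SHP099 group was wild-type macrophages given 10 µM of the allosteric SHP2 inhibitor SHP099 for 2 h and then IMQ at 10 µg/ml for 4 h. The sample labels name the SHP099 group. IMQ, the other doses and the times are stated in the study's methods and a figure legend and not in the labels. All 9 libraries came from cells treated with IMQ, so no level without IMQ is given here. Nothing in the labels says that replicates came from separate animals, so p-values measure only the spread between these samples, which may be technical.

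Depths recovered from the FPKM ran from 39842960 to 50981029 reads, and their medians were 44372607 in wild type, 43182975 in M-Shp2-/- and 43837335 in SHP099 libraries. At this depth H2-Ab1 rested on 5613 to 25865 reads per library, Ciita on 96 to 882 and H2-DMb2 on 7 to 75. A count of 0 would have allowed up to 3 reads, a floor that covers counting error only, and none of the 8 genes was at 0 in any library.

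The labels were checked first with Ptpn11, which encodes SHP2. Its FPKM was 45.8, 44.0 and 40.0 in wild type libraries 1 to 3, 18.6, 17.8 and 18.9 in M-Shp2-/- and 43.0, 42.1 and 39.6 in SHP099. All 3 M-Shp2-/- libraries thus lay below the other 6, though Ptpn11 message remained in each of them. Against wild type the log2 fold change of log2(FPKM + 1), the scale of all fold changes here, was -1.19 (adjusted p = 0.0168, limma), and it stayed between -1.24 and -1.15 with any library left out. That adjusted p passed 0.05 without M-Shp2-/- 3 (0.0473) or wild type 3 (0.0420) and missed it without M-Shp2-/- 1 (0.196), M-Shp2-/- 2 (0.151), wild type 1 (0.105) or wild type 2 (0.125), and the call was also lost with the replicate number as a replicate block. The macrophage genes Lyz2, Cd68 and Adgre1 were abundant in every library, at no less than 4743, 1211 and 172 FPKM, as the labelled cell type calls for.

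The library M-Shp2-/- 3 stood apart from the other libraries of its group. Its log2 values correlated with theirs at 0.954 and 0.967, whereas the correlations within groups among the other libraries were 0.974 to 0.992. Itgax, the gene of CD11c, was at 13.5 FPKM in it, against 199.6 and 267 in M-Shp2-/- 1 and 2, and the collagen gene Col1a1 was at 206 against 50.4 and 16.4. Fold changes of the class II genes and counts of calls that involve the M-Shp2-/- group are therefore given with and without this library, except for the B cell list, whose calls are not given. SHP099 3, which held the highest level of 6 of the 8 genes, correlated with the other SHP099 libraries at 0.988 and 0.990.

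The classical chains were among the better expressed genes of these cells. H2-Ab1 (ENSMUSG00000073421; chromosome 17 of GRCm38, 34257689 to 34269419, + strand) had FPKM of 249, 374 and 433 in wild type, 331, 369.6 and 151 in M-Shp2-/- and 344, 328 and 725 in SHP099 libraries 1 to 3. Its lowest library was M-Shp2-/- 3 and its highest SHP099 3, 4.79 times apart, and the remaining 7 fell within the wild-type range. The group means were 352 ± 93.7, 284 ± 116.5 and 466 ± 225 FPKM (SD, n = 3 each) in wild type, M-Shp2-/- and SHP099. H2-Aa (ENSMUSG00000036594; chromosome 17, 34282744 to 34287823, - strand), which encodes the alpha chain, had FPKM of 106, 151 and 164 in wild type, 146, 191 and 61.8 in M-Shp2-/- and 136, 143 and 339 in SHP099. The extremes were the same libraries, now 5.49 times apart. H2-Eb1 (ENSMUSG00000060586; chromosome 17, 34305867 to 34316674, + strand) had FPKM of 60.5, 72.6 and 87.0 in wild type, 79.4, 96.7 and 29.1 in M-Shp2-/- and 72.6, 79.6 and 176 in SHP099. Again M-Shp2-/- 3 was lowest and SHP099 3 highest, 6.07 times apart. C57BL/6 mice lack a working I-E alpha gene as background, and H2-Ea-ps was listed at 0 in all 9 libraries.

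Cd74 (ENSMUSG00000024610; chromosome 18, 60803848 to 60812652, + strand), the invariant chain, had FPKM of 184, 273 and 274 in wild type, 279, 332 and 109 in M-Shp2-/- and 232, 230.3 and 584 in SHP099 libraries 1 to 3. Although it lies on another chromosome, its lowest and highest libraries were those of the classical chains, 5.34 times apart. Its group means were 243 ± 51.7, 240.1 ± 116 and 349 ± 204 FPKM (SD, n = 3 each) in wild type, M-Shp2-/- and SHP099. The annotated microRNA gene Mir5107 overlaps a Cd74 exon on the same strand, so their reads cannot be told apart.

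The H2-M genes were expressed at lower levels. H2-DMb1 (ENSMUSG00000079547; chromosome 17, 34153072 to 34160230, + strand) had FPKM of 23.8, 35.6 and 33.3 in wild type, 29.7, 32.3 and 17.5 in M-Shp2-/- and 28.7, 21.3 and 50.3 in SHP099. Its range of 2.88 times was narrower than that of the classical chains, with M-Shp2-/- 3 lowest and SHP099 3 highest. H2-DMa (ENSMUSG00000037649; chromosome 17, 34119541 to 34139101, + strand) had FPKM of 8.53, 15.0 and 15.6 in wild type, 9.98, 10.2 and 8.26 in M-Shp2-/- and 13.0, 7.70 and 22.2 in SHP099. Its lowest library was SHP099 2, and M-Shp2-/- 3 lay only 0.45 below the gene's mean on the log2 scale, against 0.70 to 1.36 in the other 6 genes tested. An exon of H2-DMa overlaps Brd2 on the opposite strand. Whether counting took account of strand is not given in the sources used here. H2-DMb2 (ENSMUSG00000037548; chromosome 17, 34143307 to 34151555, + strand) was close to the limit of detection, at 0.709, 0.1996 and 0.522 FPKM in wild type, 1.20, 0.607 and 0.426 in M-Shp2-/- and 0.126, 0.116 and 0.528 in SHP099. H2-DMb1 and H2-DMb2 are near copies: 254 stretches of 75 bases occur in transcripts of both, which is 15.8% of those of H2-DMb1 and 14.6% of those of H2-DMb2. How reads were divided between them is not given, so the value of each is uncertain.

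Ciita (ENSMUSG00000022504; chromosome 16, 10480059 to 10528418, + strand) had FPKM of 2.08, 1.01 and 2.09 in wild type, 3.95, 6.16 and 0.605 in M-Shp2-/- and 2.29, 1.68 and 2.99 in SHP099. M-Shp2-/- 2 and M-Shp2-/- 1 were the highest of all 9 libraries and M-Shp2-/- 3 the lowest, 10.2 times below the highest. The transactivator therefore varied most within the M-Shp2-/- group, at 3.57 ± 2.79 FPKM, against 1.73 ± 0.622 in wild type and 2.32 ± 0.654 in SHP099 (SD, n = 3 each). Ciita exons overlap Dexi on the opposite strand, with the same limit as for H2-DMa.

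**Figure D1:**
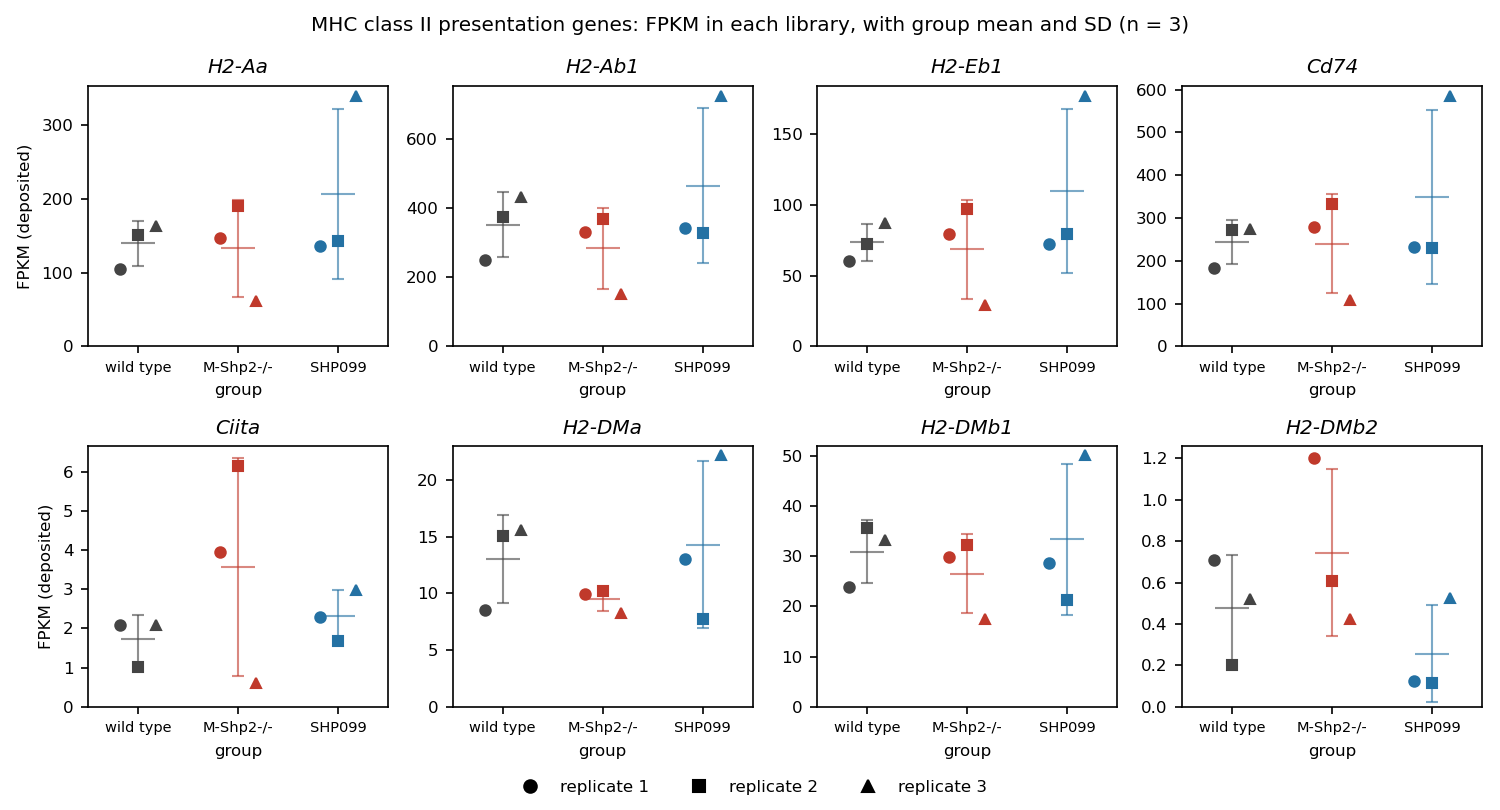
FPKM of the 8 genes (y axis, linear, starting at 0) in each of the 9 libraries, with symbols for the replicate number and bars for the group mean and SD (n = 3). In H2-Aa, H2-Ab1, H2-Eb1, Cd74 and H2-DMb1, M-Shp2-/- 3 is the lowest point and SHP099 3 the highest.

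Within each of the 9 libraries the order of the levels was the same: H2-Ab1, Cd74, H2-Aa, H2-Eb1, H2-DMb1, H2-DMa, Ciita and H2-DMb2. Between libraries the ranges of neighbours overlapped, such as 151 to 725 FPKM for H2-Ab1 and 109 to 584 for Cd74, so the order held within a library and not for single values taken across libraries. These levels are per kilobase of the mean transcript length, and the order of close neighbours depends on that length.

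The promoters of the class II genes are shown because H2-Aa, H2-Eb1 and H2-DMb1 moved together with H2-Ab1 between libraries. The window of H2-DMb2, which did not move with H2-Ab1 (r = -0.00 over 9 libraries), is shown beside them. RefSeq windows of 250 bases before to 50 bases after a gene start (GRCm38.p6) were matched for 5 of the 8 genes, in 6 windows of 32851. None was matched for H2-Ab1, Ciita or Cd74. Capitals mark letters found on either strand: AACNGATG, part of the X box of class II promoters, TGACGTCA, a cyclic AMP response element that also lies in X boxes, and ATTGG, the core of the Y box, which is written CCAAT on the other strand. The windows are chr17:34287774-34288073 (- strand) for H2-Aa, chr17:34305617-34305916 (+ strand) for H2-Eb1, chr17:34152941-34153240 (+ strand) for H2-DMb1 and chr17:34144999-34145298 (+ strand) for H2-DMb2, each written 5′ to 3′ along the gene.
H2-Aa: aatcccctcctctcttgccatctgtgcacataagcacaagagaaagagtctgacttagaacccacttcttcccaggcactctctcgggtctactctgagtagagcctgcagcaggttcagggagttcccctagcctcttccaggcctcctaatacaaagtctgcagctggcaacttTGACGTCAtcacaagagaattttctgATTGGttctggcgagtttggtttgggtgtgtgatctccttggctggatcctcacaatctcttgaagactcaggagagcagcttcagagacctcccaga
H2-Eb1: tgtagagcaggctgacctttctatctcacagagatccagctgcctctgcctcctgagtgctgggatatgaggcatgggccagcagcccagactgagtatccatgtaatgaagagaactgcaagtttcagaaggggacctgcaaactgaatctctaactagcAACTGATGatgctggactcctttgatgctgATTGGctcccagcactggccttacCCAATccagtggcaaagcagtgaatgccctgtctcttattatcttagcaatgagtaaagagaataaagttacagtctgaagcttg
H2-DMb1: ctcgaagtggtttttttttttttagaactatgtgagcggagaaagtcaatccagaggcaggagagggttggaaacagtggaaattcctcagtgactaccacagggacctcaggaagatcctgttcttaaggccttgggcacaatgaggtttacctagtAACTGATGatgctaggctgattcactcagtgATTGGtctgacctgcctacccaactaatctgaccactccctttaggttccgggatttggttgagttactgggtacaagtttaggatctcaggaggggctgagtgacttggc
H2-DMb2: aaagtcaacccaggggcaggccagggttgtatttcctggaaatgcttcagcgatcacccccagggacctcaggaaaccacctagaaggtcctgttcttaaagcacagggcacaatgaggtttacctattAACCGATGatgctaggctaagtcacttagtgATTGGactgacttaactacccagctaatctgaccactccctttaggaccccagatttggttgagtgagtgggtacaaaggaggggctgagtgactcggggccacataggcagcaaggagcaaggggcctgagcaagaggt

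In H2-Eb1, AACNGATG began 89 bases before the gene start and ATTGG 59 bases before it, with 22 bases between them. H2-DMb1 had the same letters at 92 and 61 bases before its start and H2-DMb2 at 121 and 90, both with 23 bases between. All distances are to the RefSeq start of the window. For H2-DMb1, H2-DMb2 and H2-DMa that start differs from the gene positions given above, which are those of GENCODE M21. H2-Aa held TGACGTCA at 74 bases and ATTGG at 48 bases before its start, 18 bases apart. ATTGG thus followed 18 to 23 bases after AACNGATG in 3 of these windows and after the different motif TGACGTCA in that of H2-Aa. Alone, the motifs were not rare: AACNGATG occurred in 2.32% of the 32851 windows, TGACGTCA in 1.79% and ATTGG in 37.4%. AACNGATG followed by ATTGG after 15 to 25 bases occurred in 5 windows (0.0152%), which were those of H2-Eb1, H2-DMb1, H2-DMb2, H2-Eb2 and BC051142. TGACGTCA followed by ATTGG at that distance occurred in 24 windows (0.0731%), H2-Aa among them. Of the 2 windows of H2-DMa, chr17:34125268-34125567 had ATTGG once, 198 bases before its start, and chr17:34122582-34122881 had none of the 3 motifs. These matches describe letters in a window, and the motifs and distances were chosen after the sequences had been read.

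**Figure D2:**
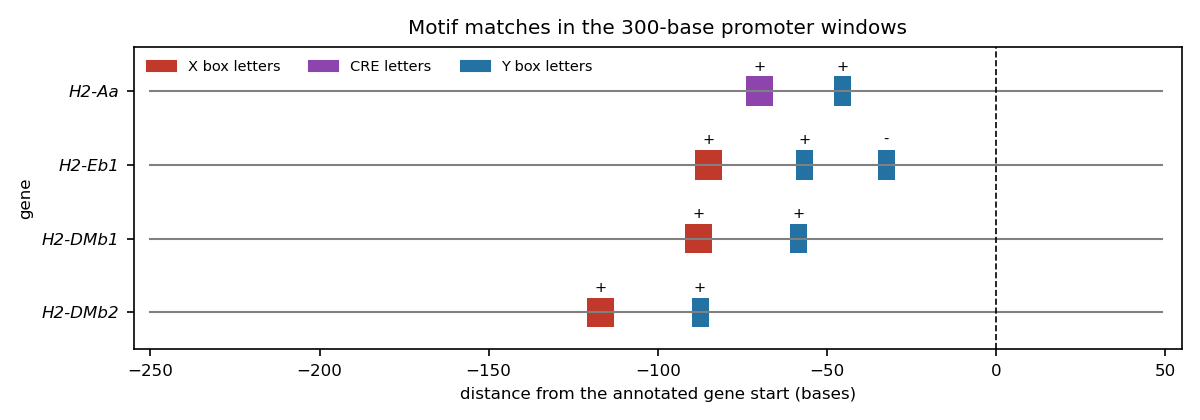
Motif matches in the 300-base promoter windows of 4 class II genes, by distance from the RefSeq gene start in bases (x axis, dashed line at the start), with + or - for the strand of the match. An X box or CRE match lies 18 to 23 bases before a Y box match in each window.

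The comparison of M-Shp2-/- with wild type asks what loss of SHP2 in myeloid cells does to gene expression under IMQ. None of the class II genes passed the test. Cd74 averaged 240.1 FPKM in M-Shp2-/- and 243 FPKM in wild type, H2-Aa 133 and 140.0, and H2-Eb1 68.4 and 73.3. H2-Ab1 averaged 284 against 352, H2-DMb1 26.5 ± 7.91 against 30.9 ± 6.26, and H2-DMa 9.48 ± 1.07 against 13.0 ± 3.91 FPKM (SD, n = 3). Ciita went the other way, at 3.57 against 1.73 FPKM.

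The libraries of both groups overlapped in all 8 genes, beside 19.1% of the 11450 genes in which they did not. Under the stricter rule, an adjusted p no higher than 0.005 with a log2 fold change of 1 or more up or down, limma called 0 of the 7 members tested, against 1 gene of 11450 (0.00873%). At an adjusted p of at most 0.05 it called 0 of 7, against 10 genes, all lower (0.0873%). At an unadjusted p under 0.05 there were 0 of 7 members and 1204 of all genes, and limma's voom on recovered reads also called 0 members. Leaving out a library brought the 10 genes to 1 without M-Shp2-/- 1, M-Shp2-/- 2 or wild type 2, to 2 without wild type 1, to 5 without wild type 3 and to 8 without M-Shp2-/- 3. That last fit had 0 genes under the stricter rule. Limma gave 1 member an unadjusted p under 0.05 without M-Shp2-/- 3, Ciita, which was higher, beside 2280 of 11450 genes. Without wild type 1 it gave 1, H2-DMa, which was lower, beside 1029 of 11450 genes. With 3 libraries a group, the smallest two-sided p of an exact permutation test is 0.1.

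The median log2 fold change of all genes was 0.15 in this comparison, and 0.01 after median-of-ratios scaling, so members are also given relative to it. Their median was -0.24, which is -0.39 relative to all genes. H2-Ab1 had a log2 fold change of -0.37 (standard error 0.37, 95% interval -1.26 to 0.51, adjusted p = 0.636 from limma), or -0.52 relative to all genes. H2-DMa was lowest at -0.38 (95% interval -0.94 to 0.17, adjusted p = 0.520, limma). Ciita was highest at 0.52 (standard error 0.54, 95% interval -0.77 to 1.82, adjusted p = 0.647, limma). The intervals of the 7 genes were 1.11 to 2.60 wide and held changes in both directions. The sign was negative for 6 genes and positive for Ciita under each scaling tried.

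That direction rested on M-Shp2-/- 3. Without this library the median of the 7 genes was 0.27 and 6 of 7 were higher than wild type: H2-Aa at 0.28, H2-Ab1 at 0.03, H2-Eb1 at 0.27, Cd74 at 0.35 and H2-DMb1 at 0.02 turned positive, while H2-DMa stayed at -0.30. Ciita then reached 1.15, with an adjusted p of 0.223 from limma. Its value was 0.08 without M-Shp2-/- 2, 0.34 without M-Shp2-/- 1 and 0.32 without wild type 2, and H2-DMa was at -0.64 without wild type 1 and -0.24 without wild type 3. The median was -0.45 without M-Shp2-/- 2, -0.13 without wild type 2 and -0.12 without wild type 3. In bulk samples such as these, fewer cells of a type and less RNA per cell cannot be told apart.

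The comparison of SHP099 with wild type asks what inhibition of SHP2 does under the same stimulus. Again none of the class II genes passed the test. Means were higher with SHP099 for the classical chains and Cd74, such as 466 ± 225 against 352 ± 93.7 FPKM for H2-Ab1 and 349 ± 204 against 243 ± 51.7 for Cd74 (SD, n = 3). The spread within the SHP099 group, in SD, was larger than these differences. SHP099 1 and SHP099 2 lay within the wild-type range for H2-Aa, H2-Ab1 and Cd74, and only SHP099 3 lay above it. H2-DMb1 averaged 33.4 and 30.9 FPKM, H2-DMa 14.3 and 13.0, and Ciita 2.32 and 1.73.

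The groups overlapped in all 8 genes, beside 34.6% of all genes in which they did not. Under the stricter rule limma called 0 of 7 members, against 19 of 11450 genes (0.166%). At an adjusted p of at most 0.05 it called 0 of 7, against 797 genes (6.96%), of which 521 were higher and 276 lower. With median-of-ratios scaling these were 572 genes, 200 higher and 372 lower. At an unadjusted p under 0.05 there were 0 of 7 members and 3061 of all genes, and voom called 0 members. The 797 genes became 90, 47 and 116 without SHP099 1, 2 and 3, and 284, 399 and 1273 without wild type 1, 2 and 3.

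The members' median log2 fold change was 0.34 against 0.13 for all genes (0.00 after median-of-ratios scaling), or 0.21 relative to them. H2-Eb1 was highest at 0.47 (standard error 0.33, 95% interval -0.31 to 1.24, adjusted p = 0.414, limma), H2-Aa at 0.45 and Cd74 at 0.39. Relative to all genes these 3 values were 0.34, 0.32 and 0.27. H2-Ab1 was at 0.34 (adjusted p = 0.569, limma) and Ciita at 0.29 (standard error 0.24, adjusted p = 0.479, limma). H2-DMa at 0.05 and H2-DMb1 at 0.04 lay below the median of all genes, and both turned negative with median-of-ratios scaling (-0.08 and -0.10) and quantile normalization (-0.07 and -0.05). The direction again rested on 1 library: without SHP099 3 the median was -0.03 and 3 of 7 genes were positive. H2-Eb1 was then at 0.07 and H2-Aa at 0.02. The median was 0.51 without SHP099 1, 0.54 without SHP099 2 and 0.20 without wild type 1, when H2-DMa and H2-DMb1 also turned negative at -0.20 and -0.13.

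**Figure D3:**
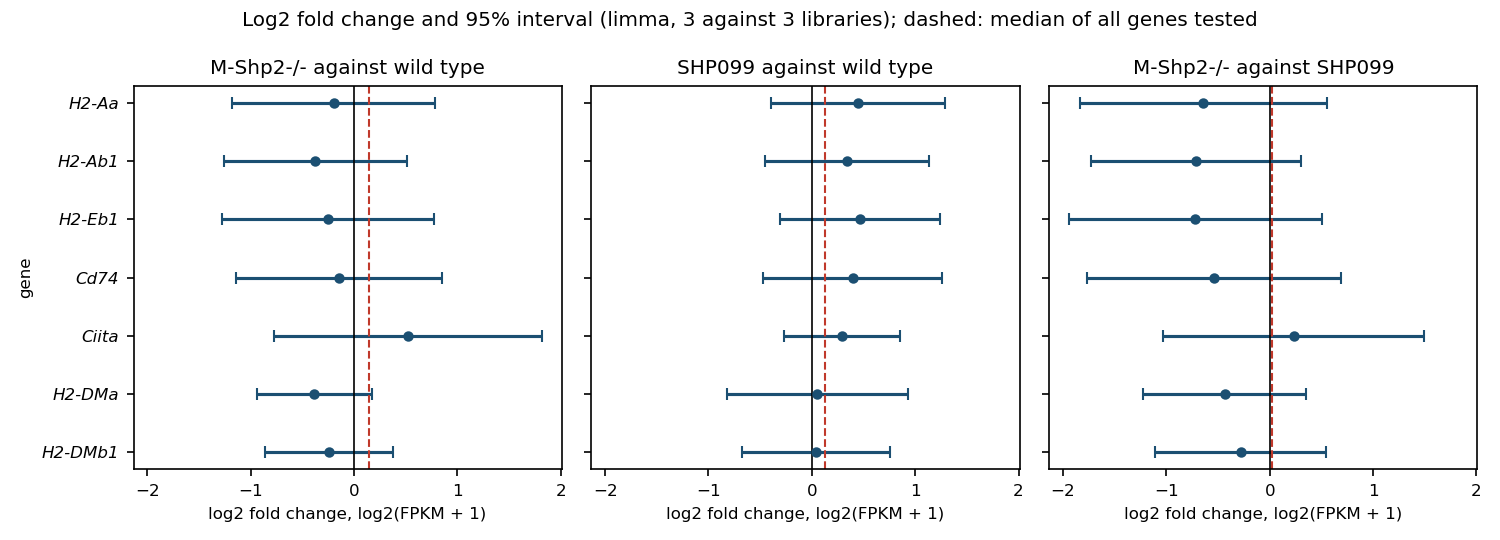
Log2 fold changes of log2(FPKM + 1) with 95% intervals (limma, 3 against 3 libraries) for the 7 genes tested, in the 3 comparisons, with a dashed line at the median of all genes. Each interval includes 0, and those of M-Shp2-/- against SHP099 reach from -1.94 to 1.49.

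M-Shp2-/- and SHP099 were also compared with each other, and the earlier comparisons share the wild-type libraries, so their values are only set side by side. H2-Ab1 was at -0.37 and 0.34, Cd74 at -0.14 and 0.39 and Ciita at 0.52 and 0.29 in M-Shp2-/- and SHP099 against wild type. Directly compared, 6 of 7 genes were lower in M-Shp2-/- than in SHP099, with a median of -0.54 beside 0.02 for all genes, and Ciita was higher. None of them passed the test. H2-Eb1 was lowest at -0.72 (standard error 0.51, 95% interval -1.94 to 0.51, adjusted p = 0.584, limma), followed by H2-Ab1 at -0.71 (adjusted p = 0.517, limma). The signs were the same under each scaling tried.

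The groups overlapped in all 8 genes, beside 17.7% of all genes in which they did not. Under the stricter rule limma called 0 of 7 members and 0 of 11450 genes (0%). At the 0.05 threshold it called 0 of 7 members and 8 genes (0.0699%). At an unadjusted p under 0.05 there were 0 members and 1437 of all genes, and voom called 0 members and 14 of all genes at the 0.05 threshold. The median of the members was -0.17 without M-Shp2-/- 3, -0.09 without SHP099 3 and -0.85 without M-Shp2-/- 2. Without M-Shp2-/- 3 the calls at the 0.05 threshold numbered 2277 of all genes and 159 under the stricter rule, and 1 member was called: Ciita was higher in M-Shp2-/- than in SHP099 at 0.86 (adjusted p = 0.0459, limma). Without M-Shp2-/- 2, Ciita was at -0.22. H2-DMa was at -0.79 without SHP099 2. In that fit it alone of the members had an unadjusted p under 0.05 from limma, beside 772 of 11450 genes. The 8 genes became 2 without M-Shp2-/- 2 and 0 without M-Shp2-/- 1 or any SHP099 library.

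M-Shp2-/- 3 and SHP099 3 were then both left out, a choice made after the data had been seen. The 6 genes that were lower with all libraries turned positive, H2-DMa only to 0.01. All 7 were then positive, with a median of 0.26 beside 0.02 for all genes. Ciita was at 1.00 (adjusted p = 0.0456, limma) and was the 1 member called, beside 1831 of all genes at that threshold and 1 under the stricter rule. Cd74 was at 0.40 (adjusted p = 0.0531, limma), H2-DMb1 at 0.31, H2-Aa at 0.26, H2-Eb1 at 0.20, H2-Ab1 at 0.06 and H2-DMa at 0.01. In all 7 genes M-Shp2-/- 3 was the lowest library of its group and SHP099 3 the highest of its own. Leaving both out could therefore only raise the fold changes, and the adjusted p-values of this fit test no difference. The lower values of the classical chains with all libraries rested on these 2 libraries.

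The clearest feature of the family was that H2-Aa, H2-Eb1, Cd74, H2-DMb1 and H2-DMa moved with H2-Ab1 from library to library. Across the 9 libraries, H2-Aa followed H2-Ab1 with a Pearson r of 0.98 (exact permutation p = 0.000598, adjusted p = 0.00176) and a Spearman rho of 0.90 (exact permutation p = 0.00203, adjusted p = 0.00473) on log2(FPKM + 1). The p-values are two-sided, and the adjusted values are over the 7 relations with H2-Ab1 computed here. The permutations exchanged all 9 libraries without regard to group. For H2-Eb1 r was 0.97 (exact permutation p = 0.000722, adjusted p = 0.00176) and rho 0.73 (exact permutation p = 0.0311, adjusted p = 0.0436). For Cd74 r was 0.97 (exact permutation p = 0.000755, adjusted p = 0.00176) and rho 0.82 (exact permutation p = 0.0108, adjusted p = 0.0188). These 3 genes had the highest r with H2-Ab1 of the 11449 other genes tested, of which 0.0349% reached 0.9 and whose median was -0.05. H2-DMb1 came next with r of 0.93 (exact permutation p = 0.00104, adjusted p = 0.00182) and rho of 0.95 (exact permutation p = 0.000353, adjusted p = 0.00247). H2-DMa ranked 13 with r of 0.82 (exact permutation p = 0.00477, adjusted p = 0.00668) and rho of 0.93 (exact permutation p = 0.00075, adjusted p = 0.00262).

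Much of this rested on the extreme libraries. Without M-Shp2-/- 3 and SHP099 3, the 2 farthest from the median of H2-Ab1, r over 7 libraries was 0.84 for H2-Aa, 0.77 for Cd74, 0.76 for H2-Eb1, 0.73 for H2-DMa and 0.71 for H2-DMb1. Ciita did not follow the genes it is known to activate as closely. Its r with H2-Ab1 was 0.50 (exact permutation p = 0.163, adjusted p = 0.190) and its rho 0.43 (exact permutation p = 0.250, adjusted p = 0.292), with rank 349. Without those libraries its r fell to 0.04. H2-DMb2 had an r of -0.00 (exact permutation p = 0.998) and a rho of 0.02 (exact permutation p = 0.982), with -0.21 without the extremes. After the group means were subtracted, r with H2-Ab1 was 0.99 for H2-Aa and Cd74, 0.97 for H2-Eb1, 0.95 for H2-DMb1, 0.79 for H2-DMa, 0.72 for Ciita and 0.49 for H2-DMb2. Shared movement was thus seen within groups, but these values include M-Shp2-/- 3 and SHP099 3 and were not computed without them.

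**Figure D4:**
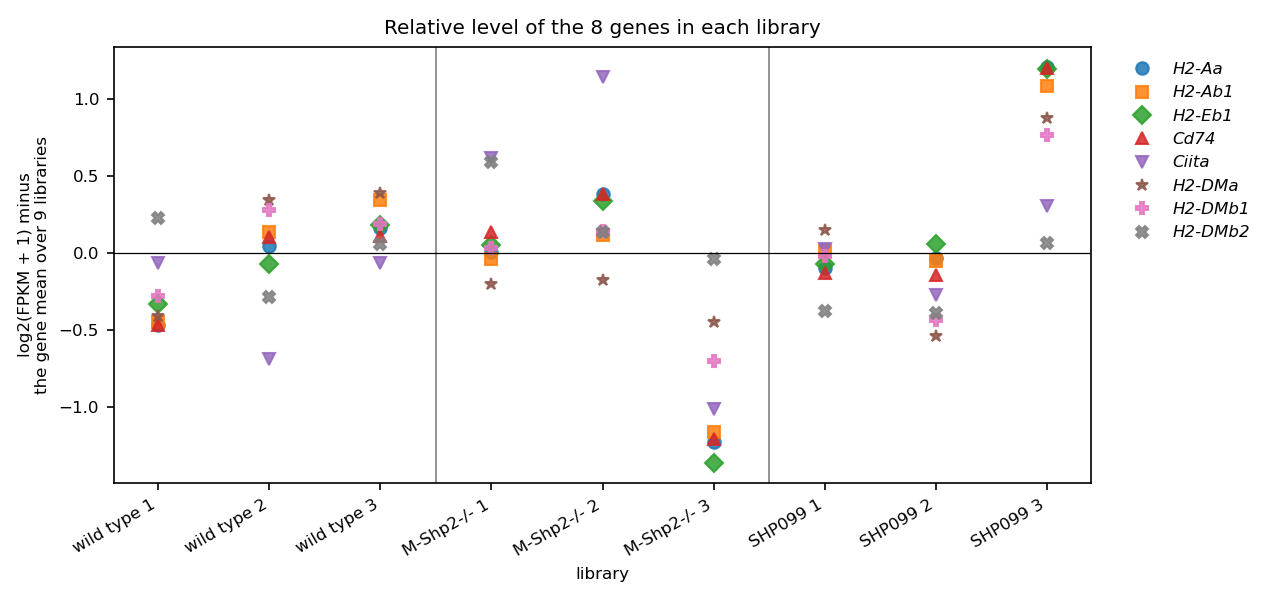
Level of each of the 8 genes in the 9 libraries as log2(FPKM + 1) minus the mean of that gene (y axis), with vertical lines between groups. H2-Aa, H2-Ab1, H2-Eb1 and Cd74 lie from -1.36 to -1.16 in M-Shp2-/- 3 and from 1.09 to 1.21 in SHP099 3, whereas Ciita is highest in M-Shp2-/- 2 at 1.15.

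The ratios of H2-Aa, H2-Eb1 and Cd74 to H2-Ab1 varied far less than their levels. H2-Aa stood at 0.378 to 0.516 of H2-Ab1 over the 9 libraries, and the log2 ratio had an SD of 0.14, against 0.65 for the log2 level of H2-Aa. H2-Eb1 stood at 0.192 to 0.262 of H2-Ab1 and Cd74 at 0.633 to 0.898. The alpha chain, the beta chains and the invariant chain thus kept a near constant proportion while their amounts changed 4.79 to 6.07 times. H2-DMa stood at 0.317 to 0.473 of H2-DMb1, whereas H2-DMb2, close to the limit of detection, ranged from 0.00441 to 0.0403 of H2-DMb1, 9.15 times apart. H2-DMb1 relative to H2-Ab1 ranged from 0.0648 in SHP099 2 to 0.116 in M-Shp2-/- 3, so H2-DMb1 varied less than H2-Ab1. Ciita relative to H2-Ab1 ranged from 0.00270 in wild type 2 to 0.0167 in M-Shp2-/- 2, which is 6.18 times. Its group means of 0.00529 in wild type, 0.0109 in M-Shp2-/- and 0.00530 in SHP099 came from libraries that overlapped, with 0.00400 in M-Shp2-/- 3 below the 0.00837 of wild type 1.

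Genes outside the family with the most similar pattern were sought as a description, with no test. The measure was Pearson's r over the 9 libraries with the mean standardized level of H2-Aa, H2-Ab1, H2-Eb1 and Cd74. Of the 8 highest, 7 were Dram1 at 0.86, Mir8091 at 0.85, Gm26254 at 0.85, Il2rg at 0.84, Ndufb4c at 0.83, Gm17024 at 0.81 and Lrp10 at 0.80. The abundant ones among them moved less than the class II genes, such as Dram1 at 105 FPKM in M-Shp2-/- 3 and 150.5 in SHP099 3. With deviations from the group means in place of levels, the highest were Src at 0.95, Cd52 at 0.94, Novel00100 at 0.90, Bcl2a1d at 0.90, Gm3788 at 0.90, Fam49b at 0.89, Vps54 at 0.89 and Zc3h12a at 0.89.

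Other genes of the pathway were read from lists. Of the further class II genes, H2-Oa, H2-Ob and H2-Eb2 had means under 1 FPKM and were not tested, with H2-Oa at most 1.04, H2-Ob at most 0.926 and H2-Eb2 at most 0.503 in any library. Of the endosomal proteases and related genes that prepare the invariant chain and peptides, limma called 0 of the 9 tested in any comparison at an adjusted p of at most 0.05. Of all genes, 0.0873%, 6.96% and 0.0699% were called in M-Shp2-/- and SHP099 against wild type and between M-Shp2-/- and SHP099. At an unadjusted p under 0.05 there were 0, 3 and 1 of these 9, in that order, and voom called 0. At that unadjusted threshold, 1204, 3061 and 1437 of the 11450 genes passed. When M-Shp2-/- 3 was left out, limma called 0 of 9 against wild type and 2 of 9 against SHP099 (beside 19.9% of all genes), both higher in M-Shp2-/-: Ctsd at 0.45 (adjusted p = 0.0160, limma) and Ctse at 0.95 (adjusted p = 0.0484, limma). Without wild type 1, Ctsl was lower in SHP099 than in wild type at -0.79 (adjusted p = 0.0352, limma), beside 2.48% of all genes called. Ctss, which makes the last cut in the invariant chain, averaged 4816 ± 721 FPKM in wild type, 4060.4 ± 704 in M-Shp2-/- and 3711 ± 372 in SHP099 (SD, n = 3). Ctsb averaged 5429 ± 417, 5761 ± 361 and 5164 ± 355, and Ctsd 3117 ± 456, 3819.7 ± 244 and 2846 ± 29.2, in the same order. Their list medians were -0.11, -0.15 and 0.12 in these comparisons, beside 0.15, 0.13 and 0.02 for all genes. Ifi30, the thiol reductase of the list, named after its values were seen, was at 0.604 to 1.29 FPKM and was not tested.

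The factors that assemble on class II promoters and hold Ciita there showed no call in any comparison. At an adjusted p of at most 0.05 limma called 0 of 7, with 0 by voom. In the same order of comparisons, 0.0873%, 6.96% and 0.0699% of all genes were called. At an unadjusted p under 0.05 there were 0, 1 and 1 of 7, beside 1204, 3061 and 1437 of 11450 genes. Without M-Shp2-/- 3 limma called 0 of 7 against wild type and 0 of 7 against SHP099, beside 0.0699% and 19.9% of all genes. At an unadjusted p under 0.05 there were 0 and 1 of 7, beside 2280 and 4127 of 11450 genes. With all libraries the medians of these 7 factors were 0.10, 0.11 and -0.01. Nfyc, a subunit of the factor that binds the Y box, was the most abundant, at 19.3 to 24.5 FPKM, and Creb1 was at 17.95 to 25.2 and Nfyb at 15.8 to 18.7.

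Of the interferon-gamma pathway and the factors that act on Ciita, 13 of 13 were tested. In both comparisons of M-Shp2-/-, with wild type and with SHP099, limma called 0 of them at an adjusted p of at most 0.05. Voom also called 0, and limma called 0.0873% and 0.0699% of all genes. At an unadjusted p under 0.05 limma gave 3 and 5 of 13, beside 1204 and 1437 of 11450 genes. Leaving out M-Shp2-/- 3, it called 0 of 13 against wild type and 6 of 13 against SHP099, beside 0.0699% and 19.9% of all genes. Irf1 (-1.43, adjusted p = 0.00296, limma), Irf2, Ifngr1 and Prdm1 were then lower in M-Shp2-/- and Irf4 (1.32, adjusted p = 0.0109, limma) and Ifngr2 higher. In SHP099 against wild type 2 of 13 fell, beside 6.96% of all genes called in either direction. Jak2, a kinase of the interferon-gamma receptor, fell from 151 ± 22.3 to 101 ± 12.4 FPKM (SD, n = 3), with a log2 fold change of -0.57 (adjusted p = 0.0485, limma). Irf4, a factor of B cells and dendritic cells that also acts on Ciita, fell from 1.43 ± 0.382 to 0.356 ± 0.165 FPKM, at -0.84 (adjusted p = 0.0490, limma). The call of Jak2 was lost with each of the 6 libraries left out in turn (adjusted p 0.0519 to 0.192, limma), and that of Irf4 remained only without wild type 3 (0.0352). Jak2 also lost its call with no filter on low values, quantile normalization, no trend and the replicate block, and Irf4 with both other pseudocounts, no filter, all 9 libraries in 1 fit and the replicate block. When wild type 3 was left out, 5 of 13 were called, beside 11.1% of all genes. Irf1 (1.11, adjusted p = 0.0118, limma), Ifngr1 and Irf2 were then higher in SHP099 and Irf4 and Socs1 lower, and the list median was 0.09. With all libraries the list medians were -0.24, -0.09 and -0.10 in the same order of comparisons. Spi1, which encodes the macrophage factor PU.1, was the most abundant at 680.5 to 889 FPKM, and Jak1 was at 249 to 315.

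Ifng and Irf1 are given beside Ciita, and their relation to it was not tested. Ifng, named after its values were seen, was at 5.06, 11.9 and 38.8 FPKM in wild type, 0.701, 1.35 and 2.21 in M-Shp2-/- and 0.460, 1.01 and 4.34 in SHP099. Every wild-type library lay above the other 6, yet the adjusted p from limma was 0.424 for M-Shp2-/- at a log2 fold change of -2.64 and 0.0819 for SHP099 at -2.54. Irf1, which interferon-gamma induces and which acts on Ciita, was at 249, 286 and 1062 FPKM in wild type, 190.3, 239 and 341 in M-Shp2-/- and 561, 511 and 673 in SHP099. Wild type 3 held the highest Ifng and Irf1 of the 9 libraries, and its Ciita of 2.09 FPKM was close to the 2.08 of wild type 1.

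Among genes that set the surface turnover of class II, Cd83 changed. Cd83 protects class II from the ubiquitin ligase March1 and was at 89.3, 68.6 and 96.3 FPKM in wild type, 49.6, 64.9 and 29.5 in M-Shp2-/- and 25.2, 25.6 and 22.0 in SHP099. All 3 SHP099 libraries were below the other 6. Against wild type Cd83 fell by 1.75 on the log2 scale in SHP099 (adjusted p = 0.00404, limma), which passed the stricter rule as 1 of the 3 genes tested in its list, beside 0.166% of all genes. Marchf1 and Marchf8, also listed, are other symbols of March1 and March8 and are not in the table. The stricter call was lost with no filter on low values, median-of-ratios scaling, no trend, all 9 libraries in 1 fit and the replicate block, with adjusted p from limma up to 0.0423. With any library left out the adjusted p stayed at most 0.0234, though it missed 0.005 in 5 of those 6 fits, at 0.0181 and 0.0234 without SHP099 1 and 2, 0.0234 without SHP099 3, 0.0177 without wild type 1 and 0.00534 without wild type 3. In M-Shp2-/- it was at -0.86 against wild type (adjusted p = 0.460, limma) and 0.89 against SHP099 (adjusted p = 0.324, limma). In those comparisons limma called 0 of 3, beside 0.0873% and 0.0699% of all genes, and voom called 0. At an unadjusted p under 0.05 limma gave 2 and 1 of 3, beside 1204 and 1437 of 11450 genes. Without M-Shp2-/- 3 it called 0 of 3 against wild type and 1 of 3 against SHP099, beside 0.0699% and 19.9% of all genes. The gene called was Cd83, higher in M-Shp2-/- at 1.19 (adjusted p = 0.00348, limma). March1 averaged 9.65, 9.78 and 9.84 FPKM and March8 49.7, 59.7 and 59.8 in wild type, M-Shp2-/- and SHP099.

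The class II genes lie among other genes of the MHC on chromosome 17. Psmb8, Psmb9, Tap1 and Tap2, which prepare peptides for class I molecules, lie between H2-DMb1 and H2-Ab1. Psmb8 was at 74.6, 78.6 and 116 FPKM in wild type, 54.4, 61.2 and 60.7 in M-Shp2-/- and 101, 90.0 and 114 in SHP099, with each M-Shp2-/- library below the other 6. With all libraries it did not pass the test, with log2 fold changes of -0.57 against wild type (adjusted p = 0.454, limma) and -0.78 against SHP099 (adjusted p = 0.0976, limma). The libraries of M-Shp2-/- and wild type did not overlap in 5 of the 9 neighbours tested and those of M-Shp2-/- and SHP099 in 6 of 9, beside 19.1% and 17.7% of all genes. Limma called 0 of the 9 in both, beside 0.0873% and 0.0699% of all genes, and voom called 0. At an unadjusted p under 0.05 limma gave 4 and 6 of 9, beside 1204 and 1437 of 11450 genes. With M-Shp2-/- 3 left out it called 0 of 9 against wild type and 5 of 9 against SHP099, beside 19.9% of all genes in the latter: Psmb8 (-0.80, adjusted p = 0.00698, limma), Psmb9, Tap2 and Brd2 were lower in M-Shp2-/- and Col11a2 higher. In SHP099 against wild type 1 of 9 rose, beside 6.96% of all genes called: Rxrb, higher in 3 of 3 SHP099 libraries, at 0.49 (adjusted p = 0.0245, limma), from 25.2 ± 0.707 to 35.8 ± 2.21 FPKM (SD, n = 3). That call was lost with no filter on low values, with median-of-ratios scaling and with each library other than wild type 3 left out in turn (adjusted p 0.0552 to 0.136, limma). When wild type 3 was left out, 3 of 9 were called, beside 11.1% of all genes: Rxrb and Brd2 were higher in SHP099 and Col11a2 lower, and the list median was 0.27. The list medians were -0.29, 0.03 and -0.25 in the same order of comparisons. Brd2 averaged 197, 197 and 221 FPKM and Tap2 88.3, 63.7 and 87.3 in wild type, M-Shp2-/- and SHP099.

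**Figure D5:**
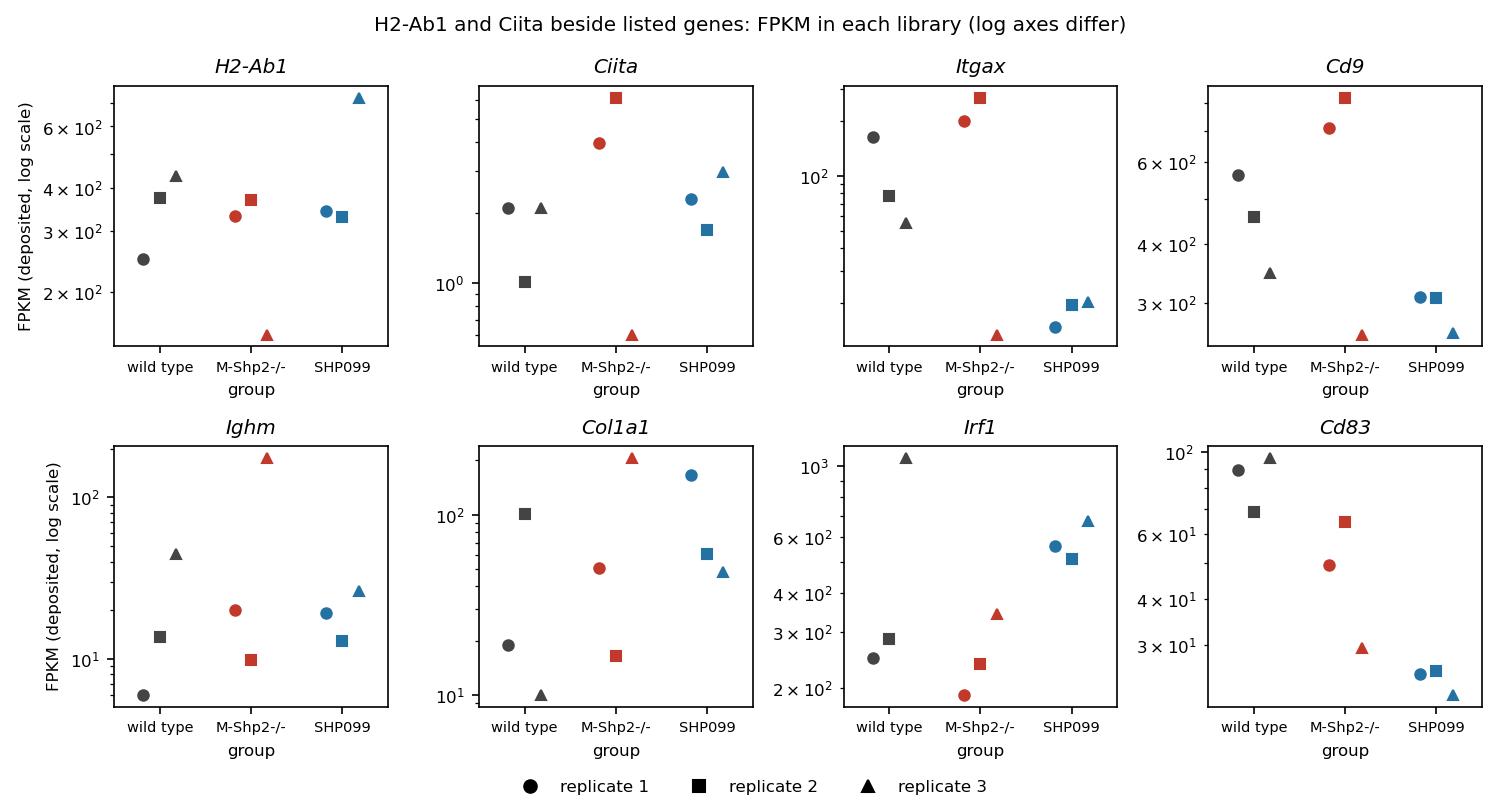
FPKM of H2-Ab1, Ciita and 6 listed genes in the 9 libraries (log y axes that differ between panels), with symbols for the replicate number. Itgax and Cd9 are high in M-Shp2-/- 1 and 2 and low in M-Shp2-/- 3, as Ciita is, whereas Ighm and Col1a1 are highest in M-Shp2-/- 3.

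Since other cell types carry class II, their marker genes are given beside these results. The small peritoneal macrophage and monocyte-derived list (4 of 7 tested, led by Itgax, with Mgl2 at 0 in some libraries) summed to 179, 104 and 78.7 FPKM in wild type, 217, 287 and 21.8 in M-Shp2-/- and 21.03, 24.7 and 31.3 in SHP099. Itgax made up 86.1% of this sum. Like Ciita, the sum was highest in M-Shp2-/- 2 and 1, but unlike the class II genes it was low in SHP099 3. Within M-Shp2-/-, Clec10a (2.91 ± 0.0514 FPKM) and Ly6c2 (3.56 ± 0.161) varied little, whereas Retnla was at 7.92 ± 6.01 (SD, n = 3). In SHP099 against wild type 2 of these 4 fell, beside 6.96% of all genes called, Itgax at -2.23 (adjusted p = 0.0224, limma) and Retnla at -2.67 (adjusted p = 0.0390, limma). Itgax kept its call with each wild-type library left out in turn and lost it without SHP099 1 (0.0917), SHP099 2 (0.110) or SHP099 3 (0.0720), and Retnla kept it only without wild type 2 (0.0377) or wild type 3 (0.0122). Itgax also lost its call with no filter on low values and with all 9 libraries in 1 fit, and Retnla with these, a pseudocount of 5, no trend, the replicate block and voom. In both comparisons of M-Shp2-/- limma called 0 of 4, beside 0.0873% and 0.0699% of all genes, and voom called 0. At an unadjusted p under 0.05 limma gave 0 against wild type and 2 against SHP099, beside 1204 and 1437 of 11450 genes. Without M-Shp2-/- 3 it called 0 against wild type and 3 of 4 against SHP099 (beside 19.9% of all genes), all higher in M-Shp2-/-: Itgax at 3.61 (adjusted p = 0.000856, limma), Retnla and Clec10a.

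The B cell list (3 of 9 tested, led by Ighm, with Ighd, Fcer2a and Cr2 at 0 in some libraries) summed to 11.9, 18.4 and 47.7 FPKM in wild type, 41.3, 19.7 and 178 in M-Shp2-/- and 20.4, 13.9 and 27.9 in SHP099. Ighm, an immunoglobulin chain gene, was at 5.97, 13.6 and 44.8 FPKM in wild type, 19.9, 9.84 and 175 in M-Shp2-/- and 19.3, 12.8 and 26.5 in SHP099. Its highest library was M-Shp2-/- 3, where the class II genes H2-Aa, H2-Ab1, H2-Eb1 and Cd74 were lowest.

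The dendritic cell list (1 of 8 tested, led by Ccr7, with Clec9a, Cd209a and Siglech at 0 in some libraries) summed to 6.46, 4.18 and 4.02 FPKM in wild type, 7.82, 5.36 and 3.70 in M-Shp2-/- and 1.55, 1.10 and 1.49 in SHP099. Ccr7 fell in SHP099 against wild type at -1.52 (adjusted p = 0.0192, limma), beside 6.96% of all genes called. It lost the call without SHP099 1 (0.0670), SHP099 2 (0.107) or SHP099 3 (0.0615), and with no filter on low values. Ccr7 was not called in either comparison of M-Shp2-/- with all libraries, beside 0.0873% and 0.0699% of all genes. Without M-Shp2-/- 3 it was higher in M-Shp2-/- than in SHP099 at 1.88 (adjusted p = 0.00438, limma), beside 19.9% of all genes called. Against wild type it was then not called, beside 0.0699% of all genes. The 3 SHP099 libraries thus had the lowest sums of this list, whereas SHP099 3 had the highest class II levels. The T and NK cell list (0 of 8 tested, led by Cd3g, with Cd3e, Cd8a, Ncr1 and Klrb1c at 0 in some libraries) summed to 0.484 to 6.50 FPKM.

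The large resident macrophage list (5 of 7 tested, led by Cd9, with Alox15 at 0 in a library) summed to 569.8, 471 and 354 FPKM in wild type, 720.3, 829.5 and 265 in M-Shp2-/- and 319, 315 and 267 in SHP099. Cd9 made up 98.1% of this sum. Gata6, the factor of resident peritoneal macrophages, was at 0.924, 2.54 and 0.486 FPKM in wild type, 1.41, 0.380 and 2.97 in M-Shp2-/- and 2.31, 1.34 and 0.579 in SHP099, so that M-Shp2-/- 3 was its highest library and not its lowest. The fibroblast and mesothelial list (3 of 6 tested, led by Col1a1, none at 0) summed to 41.5, 198 and 24.97 FPKM in wild type, 90.1, 31.9 and 391 in M-Shp2-/- and 250, 91.4 and 70.9 in SHP099. Its highest sum was in M-Shp2-/- 3, the library with the least class II. The granulocyte and mast cell list (1 of 8 tested, led by Csf3r, with Ly6g, Retnlg, Prg2, Epx, Cpa3 and Mcpt4 at 0 in some libraries) summed to 52.6 to 98.2 FPKM. Limma called 0 genes of these 3 lists in the 3 comparisons at an adjusted p of at most 0.05, with 0 by voom. Called by limma among all genes were 0.0873%, 6.96% and 0.0699%, in M-Shp2-/- and SHP099 against wild type and between M-Shp2-/- and SHP099. At an unadjusted p under 0.05 there was 1 gene of the lists, Cd9 in SHP099 against wild type, beside 3061 of 11450 genes. Cd9 alone of these lists was called without M-Shp2-/- 3, higher in M-Shp2-/- than in SHP099 at 1.39 (adjusted p = 0.00175, limma), beside 19.9% of all genes. Without wild type 3 it was called as lower in SHP099 than in wild type at -0.80 (adjusted p = 0.0184, limma), beside 11.1% of all genes. Of the 7 macrophage genes, which summed to 9416, 12033 and 9694 FPKM in wild type, 6890.1, 6879 and 7192 in M-Shp2-/- and 11009, 12071 and 12559.6 in SHP099, 1 rose in SHP099 against wild type, beside 6.96% of all genes called: Csf1r at 1.38 (adjusted p = 0.0222, limma). That call was lost with no filter on low values, with median-of-ratios scaling and without SHP099 1 (0.0760), SHP099 2 (0.116) or SHP099 3 (0.0774). Lyz2, which made up 80.9% of the sum and gives its name to the cre of the M-Shp2-/- mice, averaged 8539.6 FPKM in wild type and 5004 in M-Shp2-/-, whereas Cd68 averaged 1377 and 1523 and Csf1r 78.9 and 112. In both comparisons of M-Shp2-/- limma called 0 of these 7, beside 0.0873% and 0.0699% of all genes. Voom called 0 against wild type and 1 against SHP099. At an unadjusted p under 0.05 limma gave 2 and 2 of 7, beside 1204 and 1437 of 11450 genes. It called, without M-Shp2-/- 3, 0 against wild type and 4 against SHP099, beside 19.9% of all genes in the latter, with Lyz2, Csf1r and Itgam lower in M-Shp2-/- and Cd68 higher. The part of these other cells in the levels of the class II genes was not tested.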

How the data were processed

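The values are FPKM as deposited by the authors. The submitters' processing notes name CASAVA 1.8 for base calling, HISAT2 2.0.4 for alignment and HTSeq 0.9.1 for counting, and poly-A libraries. The strand, the genome build and the tool that made the FPKM are not given in the sources used here. The table holds 54059 genes, of which 27396 were 0 in every library, 353 are not in GENCODE M21 (GRCm38) and 258 of these carry identifiers of the authors' own assembly. A second deposited table, of newly assembled genes, was not used.

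Genes with a mean of at least 1 FPKM were tested with limma 3.58.1 (R 4.3.3) on log2(FPKM + 1), with a mean-variance trend, on the 6 libraries of each comparison, and p-values were adjusted over all 11450 genes by the Benjamini-Hochberg method. DESeq on counts, which the authors used, was not run because the values are FPKM. The procedure was tested on simulated data. Python 3.11.15, numpy 2.4.6, pandas 2.3.3, scipy 1.17.1, statsmodels 0.14.6 and matplotlib 3.10.9 were also used.

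Reads were recovered from the FPKM with the mean transcript length of each gene. For each library the smallest total was taken that gave a near-best share of whole reads (within 0.05, among values of up to 50 reads), because multiples of it also give whole numbers. Of such values 96.2% to 96.7% were whole, where chance gives 10%, and their sum came to 98.4% to 98.7% of the total.

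Alternatives were pseudocounts of 0.1 and 5, no filter, a mean of at least 5 FPKM, median-of-ratios scaling, quantile normalization, no trend, all 9 libraries in a single fit, the replicate number as a block, voom on recovered reads and each library left out. The fit without M-Shp2-/- 3 and SHP099 3 was added after seeing the data.

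All 8 members were described. From each list, those that reached an adjusted p of 0.05 or less in a comparison and the 3 with the highest mean FPKM could be named, with Ptpn11 as a check of the labels and the 8 genes with the highest r for each measure of likeness. Some genes that this rule names are not reported here. Others are named as listed at 0, as list members or as chosen after their values were seen. The members and lists were chosen with earlier results of these data known, and the motifs and their distances after the sequences were read.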

Additional observations from a re-analysis of the deposited data

How the results depend on the processing

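Outside the fits that left out a library, 203 member fold changes kept their direction and their side of the threshold, and 4 changed sign, all in SHP099 against wild type: H2-DMa was at -0.08 and H2-DMb1 at -0.10 with median-of-ratios scaling, and they were at -0.07 and -0.05 with quantile normalization. Of the counts and medians, 132 stayed within 1.5 times or within the spread between replicates and 18 moved, and the cause was not tested. Reads of H2-DMb2, 7 to 75 per library, limit what can be said of it.

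In M-Shp2-/- against wild type, the 1 gene under the stricter rule became 0 with no filter, 3 with median-of-ratios scaling, 0 without trend, 2 with all 9 libraries and 0 to 0 with a library left out. The 10 genes at an adjusted p up to 0.05 became 6 without trend and 1 to 8 with a library left out. In SHP099 against wild type, the 19 genes under the stricter rule became 0 with no filter, 4 without trend, 9 with voom and 0 to 26 with a library left out. The 797 genes at 0.05 became 74 with no filter and 47 to 1273 with a library left out. In M-Shp2-/- against SHP099, the 0 genes under the stricter rule became 1 with all 9 libraries, 0 to 159 with a library left out and 1 without both libraries numbered 3. The 8 genes at 0.05 became 3 with no filter, 17 at a mean of at least 5 FPKM, 3 with all 9 libraries, 14 with voom, 0 to 2277 with a library left out and 1831 without both. The members called there were 0 to 1 with a library left out and 1 without both.

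With the replicate number as a replicate block, the genes under the stricter rule were 0 in M-Shp2-/- against wild type and 0 in SHP099 against wild type. Those at 0.05 were 2 and 591, and 0 between M-Shp2-/- and SHP099. The numbers do not pair the libraries: deviations of same-numbered libraries correlated at 0.49, -0.43 and 0.19 for M-Shp2-/- and wild type, at -0.04, -0.09 and 0.45 for SHP099 and wild type, and at -0.01, 0.18 and -0.05 for M-Shp2-/- and SHP099.

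With a library left out, log2 fold changes in M-Shp2-/- against wild type ran from -0.53 to 0.28 for H2-Aa, -0.61 to 0.03 for H2-Ab1, -0.58 to 0.27 for H2-Eb1, -0.45 to 0.35 for Cd74, -0.41 to 0.02 for H2-DMb1, 0.08 to 1.15 for Ciita and -0.64 to -0.24 for H2-DMa. Their median ran from -0.45 to 0.27. In SHP099 against wild type they ran from 0.02 to 0.68 for H2-Aa, 0.07 to 0.70 for H2-Eb1, 0.09 to 0.44 for Ciita, -0.03 to 0.54 for H2-Ab1, -0.05 to 0.62 for Cd74, -0.30 to 0.40 for H2-DMa and -0.29 to 0.31 for H2-DMb1. The median ran from -0.03 to 0.54. In M-Shp2-/- against SHP099 they ran from -0.22 to 0.86 for Ciita, -0.55 to 0.05 for H2-DMb1, -0.97 to -0.17 for H2-Aa, -0.95 to -0.31 for H2-Ab1, -1.05 to -0.20 for H2-Eb1, -0.85 to -0.05 for Cd74 and -0.79 to -0.08 for H2-DMa, with a median from -0.85 to -0.09. Without both libraries numbered 3, H2-Aa was at 0.26, H2-Ab1 at 0.06, H2-Eb1 at 0.20, Cd74 at 0.40, H2-DMa at 0.01, H2-DMb1 at 0.31 and Ciita at 1.00, with a median of 0.26. The cause was not tested.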
